A study of Mus musculus with 12 samples.

Results

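The comparison described here is between Socs2-null mouse livers collected 36 h after partial hepatectomy and Socs2-null livers collected 24 h after it. Its members were the arrays labelled as Socs2 null mutant at those times, 2 at 36 h and 2 at 24 h, which are 4 of the 12 arrays of the study. Every gene on the array was compared, 17097 in all, each by the brightest of its probe sets. The other 8 arrays held Socs2-null liver without surgery and wildtype liver at 36 h, at 24 h and without surgery, 2 arrays each.

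The Socs2-null adults carried their null allele on a C57BL/6 background, and the wildtype controls were C57BL/6 adults. Partial hepatectomy, the removal of most of the liver mass, had been performed on all animals at 36 h and 24 h, and the age-matched animals at 0 h had not been operated on. Each array held labelled RNA from a pool of 3 livers, so a group was 2 pools and single animals could not be compared. Sham-operated animals are not analysed here, and the labels give neither the sex of the mice nor the hour of collection. The 2 times lie 12 h apart, so time since surgery and hour of the day cannot be told apart.

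After part of the liver is removed, the remaining hepatocytes leave rest, pass through a wave of immediate-early gene transcription, grow, replicate their DNA and then divide, while the liver goes on making plasma proteins, bile acids and lipids. In mice, hepatocyte DNA synthesis is commonly placed in the second day after surgery, so these times lie around its onset and peak. Socs2 encodes a suppressor of cytokine signalling, a feedback inhibitor that binds the activated growth hormone receptor and limits signalling through JAK2 and STAT5. Growth hormone pulses set much of the sex-biased expression of mouse liver genes.

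The Socs2 probe set had intensities of 28.7 and 23.2 on the Socs2-null 36 h arrays and of 26.6 and 29.5 on the Socs2-null 24 h arrays. Wildtype arrays had 264 and 173 at 36 h and 306 and 116 at 24 h. For this probe set, the brightest of 4, all 4 Socs2-null arrays lay below all 4 wildtype arrays and under the brightest negative control of their array. A further Socs2 probe set had 45.7 and 21.2 on the Socs2-null 36 h arrays and 18.5 and 37.8 on the Socs2-null 24 h arrays, also below each wildtype array at those times, with the first value above its negative controls. Another Socs2 probe set did not separate the genotypes, with 75.8 and 65.7 at 36 h and 67.6 and 56.2 at 24 h in Socs2-null livers, against 61.4 and 63.7 at 36 h and 64.3 and 62.9 at 24 h in wildtype livers. The remaining probe set was at or below 30.0 on all 12 arrays. Intensities are the deposited brightness values on a linear scale, and log2 changes below were taken on log2(intensity + 16), which makes changes of dim genes smaller. Each log2 change is 36 h minus 24 h and carries its standard error from limma, a linear model that pools the spread over all groups.

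Averaged over genes, the 2 pools of a group differed by more at 36 h and 24 h than in unoperated livers. The standard deviation within the group, averaged over genes on the log2 scale, was 0.20 in Socs2-null 36 h livers and 0.23 in Socs2-null 24 h livers, against 0.10 to 0.20 in the other 4 groups, and 0.23 was the highest of the 6. At 24 h, replicate 2 carried the neutrophil alarmin genes S100a8 and S100a9 at 655 and 953, while replicate 1 had 96.3 and 127. The same pool had 3189 for the acute-phase gene Saa3, against 978 in replicate 1. Replicate 1 of the 24 h group had higher replication genes, with a mean log2 intensity over 31 DNA synthesis genes of 7.61 against 7.21 in replicate 2. At 36 h, replicate 1 had a mean of 8.32 over 14 immediate-early genes and replicate 2 had 7.81. In their correlations on the log2 scale the 4 Socs2-null arrays did not group by time. Replicate 1 at 24 h correlated at 0.9915 with replicate 2 at 36 h, and replicate 2 at 24 h at 0.9883 with replicate 1 at 36 h. Within a time the correlations were lower, 0.9845 at 24 h and 0.987 at 36 h. Markers of neutrophils and monocytes summed to between 740 and 816 on the 36 h arrays and to between 591 and 2073 on the 24 h arrays. Without S100a8 and S100a9 the remaining 8 markers summed to 463 and 420 at 36 h and to 368 and 465 at 24 h.

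**Figure D1:**
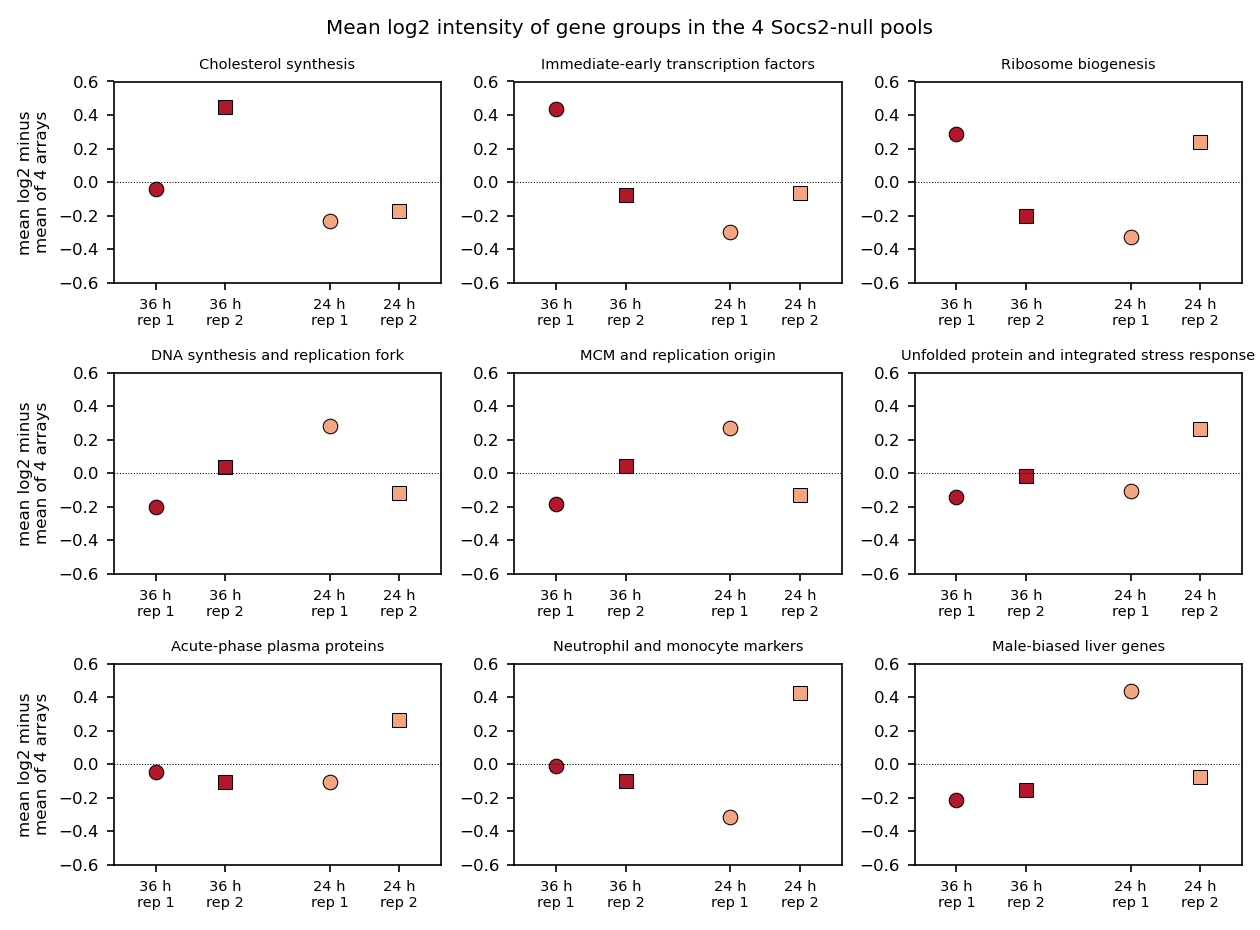
Each panel shows 1 gene group. The vertical axis gives the mean log2(intensity + 16) of its genes on each of the 4 Socs2-null arrays, minus the mean over those 4 arrays; the horizontal axis lists the 36 h replicates and then the 24 h replicates, with circles for replicate 1 and squares for replicate 2. Cholesterol synthesis genes were higher on both 36 h arrays than on both 24 h arrays, and DNA synthesis, MCM and ribosome biogenesis genes differed as much between pools of 1 time as between times.

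Between 36 h and 24 h, Socs2-null livers differed in 1 gene of 17097 after Benjamini-Hochberg adjustment at 0.05, which is 0.00585% of the genes tested. That gene was Tff3, and it fell. Without adjustment, 1230 genes had p under 0.05, or 7.19%. The 36 h arrays both lay above both 24 h arrays for 3273 genes, 19.1% of all, and both lay below for 2365 genes, 13.8%. The median log2 change over all genes was 0.02, and the standard error of a gene's change had a median of 0.13. The same contrast in wildtype livers called 41 genes, or 0.24%, with 37 higher (0.216%) and 4 lower (0.0234%) at 36 h. No gene passed in the test of the difference between the Socs2-null change and the wildtype change (0 of 17097), where 885 genes, 5.18%, had an unadjusted p under 0.05. P-values set each change against a spread between pools that was shared over all 6 groups, since a group has no more than 2 pools. The 2 groups compared had the highest spreads of the 6, 0.20 and 0.23. The shared estimate can thus understate the spread of the pools compared. When 1 of the 4 compared arrays was left out, the log2 change of 53 of 96 genes described here moved by over 1.5 times under at least 1 of the omissions, and 7 turned in sign.

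**Figure D2:**
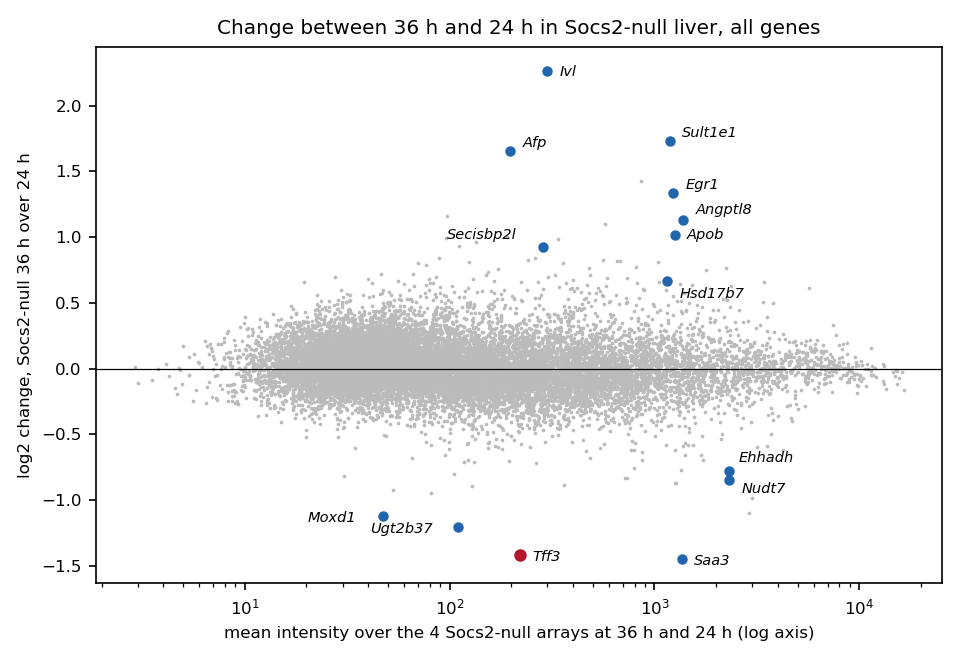
Each point is 1 of 17097 genes. The horizontal axis is the mean intensity over the 4 Socs2-null arrays at 36 h and 24 h, on a log scale, and the vertical axis is the log2 change of 36 h over 24 h. Tff3, in red, was the gene past the adjusted threshold; genes in blue are described in the text and did not pass, some with equal or larger changes, such as Sult1e1 at 1.73 and Saa3 at -1.45.

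Tff3 encodes trefoil factor 3, a small secreted peptide of mucosal epithelia that bile duct cells also make. Its intensity was 116 and 110 in the Socs2-null 36 h pools and 349 and 310 in the Socs2-null 24 h pools. Both 36 h pools were about equally low and lay far below both 24 h pools, with no overlap. The log2 change was -1.42 ± 0.13 (2.67-fold lower, adjusted p = 0.00557, 95% limits -1.71 to -1.13). Tissue was measured in bulk, so fewer cells of a type and less RNA per cell cannot be told apart for this or any gene below. Unoperated Socs2-null livers had 446 and 559, the highest of the 3 times.

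In wildtype livers Tff3 had 111 and 101 at 36 h and 137 and 128 at 24 h, a change of -0.28 ± 0.13 (adjusted p = 0.351). At 36 h the wildtype level was thus close to that of the Socs2-null pools, while at 24 h the Socs2-null pools were higher. The difference between the genotypes' changes was -1.14 ± 0.19, with an unadjusted p of 8.032e-05 and an adjusted p of 0.482, so it did not pass over all genes. The 7 other bile duct markers measured summed to 396 and 415 at 36 h and 378 and 373 at 24 h in Socs2-null livers, that is, without a lower level at 36 h. The Tff3 call depended on the spread estimated from the other arrays: its adjusted p was 0.996 with the 4 compared arrays alone and 0.0505 with the 24 h and 36 h arrays alone. Spiked hybridization controls averaged 9.15 and 8.92 on the log2 scale at 36 h and 9.27 and 9.67 at 24 h, and with their brightness as a covariate the adjusted p was 0.0897.

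Nudt7, a peroxisomal hydrolase that splits coenzyme A and its acyl esters, was next by its test. It had 1496 and 1812 in Socs2-null 36 h pools and 2832 and 3137 in Socs2-null 24 h pools. Every 36 h pool was below every 24 h pool, and the log2 change was -0.85 ± 0.11 (1.80-fold lower, adjusted p = 0.0560), just outside the threshold. Leaving out replicate 1 of the 24 h group gave an adjusted p of 0.0320, leaving out replicate 2 of the 36 h group gave 0.0300, and quantile normalization gave 0.0442. Wildtype pools had 4561 and 4649 at 36 h and 4506 and 5050 at 24 h, which overlapped. The difference from wildtype was -0.80 (unadjusted p = 0.0002597, adjusted p = 0.795). Of the other Nudt7 probe sets, one had a log2 change of -0.66 and the other one of -0.22.

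**Figure D3:**
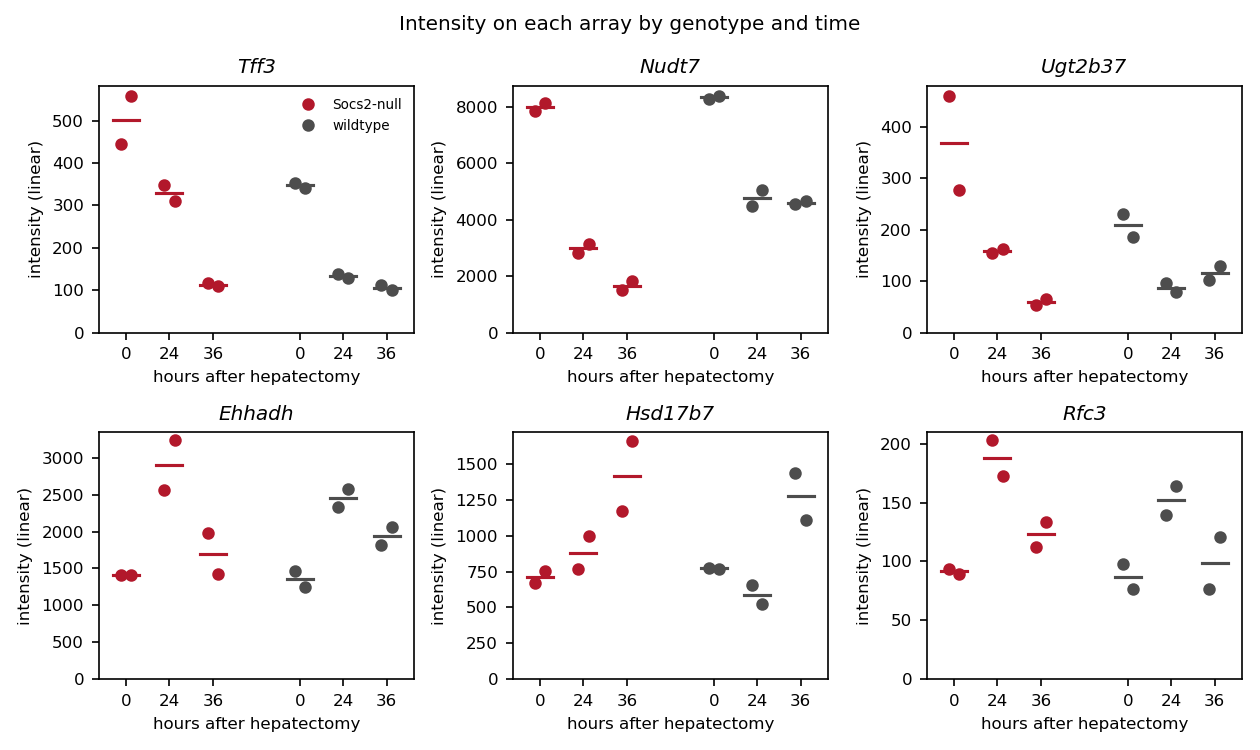
Each panel shows the linear intensity of 1 gene on all 12 arrays by hours after hepatectomy, with Socs2-null livers in red on the left and wildtype livers in grey on the right; points are pools of 3 animals and bars are group means (n = 2). Tff3 and Nudt7 were lower at each later time in Socs2-null livers, and Hsd17b7 at 36 h lay above 24 h in both genotypes.

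After Tff3 and Nudt7, the lowest moderated t values belonged to 8 genes with adjusted p between 0.307 and 0.577. Ugt2b37, a glucuronosyltransferase that conjugates steroids and drugs, had 54.1 and 65.9 at 36 h and 156 and 162 at 24 h in Socs2-null livers, with no overlap (log2 change -1.20 ± 0.21, adjusted p = 0.45). In wildtype livers its change was 0.34, and the difference of -1.54 had an adjusted p of 0.795. Ehhadh, the bifunctional enzyme of peroxisomal fatty acid oxidation, had 1981 and 1424 at 36 h and 2567 and 3245 at 24 h (-0.78 ± 0.17). Ift20, a subunit of the intraflagellar transport complex, had 578 and 632 against 1003 and 874. For each of these genes both 36 h arrays were below both 24 h arrays. Zg16, Zdhhc2, Cmc4 and the unnamed transcripts 4833411C07Rik and C030004G16Rik made up the rest, with changes of -0.47 to -0.81. C030004G16Rik was under background at both times, and Zg16 and Zdhhc2 were under it at 36 h, where they were at least 1.22-fold and at least 1.18-fold lower.

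The 10 highest moderated t values reached adjusted p of 0.307 to 0.577, and none passed. Secisbp2l, a homologue of the selenocysteine insertion factor, had 360 and 396 at 36 h and 180 and 205 at 24 h (0.92 ± 0.17). Lpcat3, which loads polyunsaturated fatty acids into membrane phospholipids, had 1451 and 1137 against 804 and 813 (0.66 ± 0.14). Rbfox2, a splicing regulator, had 183 and 208 against 128 and 121 (0.59 ± 0.12). These 3 genes were higher on both 36 h arrays, and in wildtype livers their log2 changes were 1.32, 0.61 and 0.45. Carmil2, Plekha5 and Fam43a were higher by 0.76, 0.55 and 0.62 without overlap, but Carmil2 was at -0.022 when probe sets that can match several transcripts were left out. Fam216b and Krtap6-5 were under background at 24 h, Fam216b being at least 1.02-fold higher at 36 h, and Hs3st5 and Ifna11 were under it at both times. All 10 had a wildtype change in the same direction.

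By size, 63 genes were at least 1.5-fold higher at 36 h and 32 at least 1.5-fold lower, counting genes whose pools did not overlap. At 2-fold these counts were 6 and 5, and the genes named in this paragraph were chosen after their values were seen. The higher ones were Sult1e1, Afp, Egr1, Gml2, Angptl8 and Apob. Sult1e1, the oestrogen sulfotransferase, had 1800 and 1623 at 36 h and 225 and 1102 at 24 h, against 43.4 and 25.0 in unoperated Socs2-null livers (1.73 ± 0.71, adjusted p = 0.661). Its 24 h pools differed widely, and the change was 0.63 without replicate 1 of that group and 2.84 without replicate 2. Angptl8, a secreted inhibitor of lipoprotein lipase action, had 1724 and 2044 against 1104 and 654 (1.13 ± 0.35). Gml2 had 178 and 95.2 against 25.4 and 88.6.

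Afp, the fetal albumin-like protein of hepatocyte precursors, had 127 and 517 at 36 h and 79.6 and 64.5 at 24 h in Socs2-null livers (1.66 ± 0.45, adjusted p = 0.593). One 36 h pool was far above the other, and the adjusted p was 0.00328 when the lower pool, replicate 1, was left out. Apob, the structural protein of very low density lipoproteins, had 1551 and 1815 against 914 and 735 (1.02 ± 0.24). In wildtype livers Apob rose by 2.62 (adjusted p = 0.0046). The 5 lower genes were Tff3, Ugt2b37, Saa3, Creld2 and Moxd1, of which Moxd1 was under background at 36 h and was at least 1.72-fold lower.

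Replicate 1 of the 36 h group also had high values of Pdk4, Slc25a30 and Ivl, genes chosen after their values were seen. No other Socs2-null pool at 36 h or 24 h had them at such a level, and their groups overlapped. Pdk4, the kinase that turns off pyruvate dehydrogenase, had 1723 and 95.2 at 36 h and 92.5 and 374 at 24 h. Slc25a30, a mitochondrial carrier, had 2440 and 294 against 186 and 504. Ivl, which encodes involucrin, a protein of the epidermal cornified envelope, had 1127 and 18.6 against 17.4 and 35.4, under background at 24 h. Without that pool the log2 changes of Pdk4, Slc25a30 and Ivl were -0.89, -0.07 and -0.26.

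Among 31 genes of DNA synthesis and the replication fork, 27 had a lower mean at 36 h than at 24 h in Socs2-null livers, and none passed the adjusted test. Of the 31, 8 were lower on both 36 h arrays (25.8%, against 13.8% of all genes) and none was higher on both. Their median log2 change was -0.13, against 0.02 for all genes. Rfc3, a subunit of the clamp loader, had 112 and 134 at 36 h and 203 and 173 at 24 h (-0.56 ± 0.18, adjusted p = 0.617). Rpa2, a subunit of the single-strand DNA binding protein, had 101 and 105 against 144 and 164 (-0.51 ± 0.20). Both genes had their lower pools at 36 h, with no overlap, and in wildtype livers their log2 changes were -0.57 and -0.87. Pole2, a subunit of DNA polymerase epsilon, had 47.2 and 54.9 against 70.7 and 60.2. Pcna, the sliding clamp, had 1148 and 1195 against 1501 and 1313 (-0.26, 95% limits -0.63 to 0.11); Pcna was named after its values were seen.

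The 19 measured genes of the MCM helicase and replication origin had a median of -0.15, with none higher and 2 lower on both 36 h arrays, Cdc45 and Mcm4 (10.5%, under the 13.8% of all genes). Mcm4, a helicase subunit, had 124 and 141 at 36 h and 211 and 146 at 24 h. Cdc45, which activates the helicase, had 45.3 and 40.4 against 58.8 and 51.3. Mcm10, an initiation factor, had 116 and 154 against 302 and 149, an overlap (-0.61 ± 0.27), and in wildtype livers it had a log2 change of 0.63. Unlike Mcm4, with 46.1 and 43.6, this Mcm10 probe set was brightest in unoperated Socs2-null livers, with 1590 and 1287. The wildtype median of the 19 genes was -0.10. Of them, 3 were higher and 5 lower on both wildtype 36 h arrays, against 23.3% and 22.8% of all genes. The Socs2-null medians of both replication groups rested on single pools. Without 1 Socs2-null array at a time they ran from -0.35 to 0.03 for DNA synthesis and from -0.39 to 0.04 for the MCM group. E2f8, a repressor of the E2F family that is itself an S-phase gene, had 95.7 and 92.4 against 121 and 179 (-0.57 ± 0.21).

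The promoters of Rfc3 and Rpa2 are shown because many replication genes, but not all, carry a binding sequence of the E2F factors that drive S-phase transcription. The sequences are RefSeq windows of 300 bases on GRCm38.p6, from 250 bases before to 50 after the annotated start. E2F elements were searched on both strands as the 7-letter forms TTGGCGC, the variant TTCCCGC and the variant TTCGCGC. They were in 11 of 16 windows of the MCM group (68.8%) and in 18 of 34 windows of the DNA synthesis group (52.9%), against 8.07% of all 32851 windows. A match is a description of the letters in the window. Rfc3 lies at chr5:151651159-151651458 on the minus strand and Rpa2 at chr4:132768110-132768409 on the plus strand, with matches in capitals.
Rfc3: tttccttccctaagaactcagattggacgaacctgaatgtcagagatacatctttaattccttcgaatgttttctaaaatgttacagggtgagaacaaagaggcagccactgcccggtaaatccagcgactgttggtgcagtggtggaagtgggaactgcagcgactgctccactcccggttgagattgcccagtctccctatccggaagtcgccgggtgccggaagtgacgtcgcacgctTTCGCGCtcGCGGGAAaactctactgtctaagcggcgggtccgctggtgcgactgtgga
Rpa2: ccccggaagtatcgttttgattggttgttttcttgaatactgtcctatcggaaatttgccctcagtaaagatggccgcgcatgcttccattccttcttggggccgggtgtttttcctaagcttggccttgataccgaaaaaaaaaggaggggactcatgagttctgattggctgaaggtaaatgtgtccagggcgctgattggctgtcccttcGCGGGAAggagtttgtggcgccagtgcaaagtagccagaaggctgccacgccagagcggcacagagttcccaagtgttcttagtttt

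Mitotic genes were mixed. Of 43 measured, 5 were higher on both 36 h arrays (11.6%, against 19.1% of all genes) and 2 were lower (4.65%, against 13.8%), and their median was -0.07, with 12 under background at both times. The median ran from -0.14 to 0.05 without 1 Socs2-null array. Hmmr, a spindle-associated hyaluronan receptor, had 84.7 and 69.2 at 36 h and 41.1 and 45.3 at 24 h (0.65 ± 0.15, adjusted p = 0.593). Cenpf, a kinetochore protein, had 107 and 90.7 against 70.5 and 79.8 (0.33 ± 0.12). Foxm1, a transcription factor of G2 and M genes, was among the 12 under background, with 29.4 and 27.5 against 19.8 and 23.3. Hmmr and Cenpf were higher without overlap, but the mean over all Hmmr probe sets had a log2 change of -0.039. Unoperated Socs2-null livers had 64.3 and 88.1 for Hmmr and 156 and 179 for Cenpf. At 36 h Hmmr thus overlapped its unoperated level, and Cenpf lay below it. Mki67, the Ki-67 proliferation antigen, had 39.0 and 47.4 against 75.2 and 46.4, an overlap (-0.35 ± 0.19). The mitosis median in wildtype livers was 0.12. Of the 43 genes, 15 were higher on both wildtype 36 h arrays (against 23.3% of all genes) and 4 lower (against 22.8%).

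Cell cycle genes of G2 and M are timed by factors that bind a CHR element and the nearby CCAAT boxes. CHR elements, searched as TTTGAA or TTCGAA on both strands, were in 80.6% of 36 windows of the mitosis group, against 19.2% of all windows. CCAAT was in 80.6% of those 36 windows, against 37.4% of all. The Hmmr window at chr11:40733388-40733687, minus strand, is shown as the mitotic gene with the highest t; its capitals mark 5 CCAAT boxes, all on the reverse strand as ATTGG, and a CHR element just after the start.
Hmmr: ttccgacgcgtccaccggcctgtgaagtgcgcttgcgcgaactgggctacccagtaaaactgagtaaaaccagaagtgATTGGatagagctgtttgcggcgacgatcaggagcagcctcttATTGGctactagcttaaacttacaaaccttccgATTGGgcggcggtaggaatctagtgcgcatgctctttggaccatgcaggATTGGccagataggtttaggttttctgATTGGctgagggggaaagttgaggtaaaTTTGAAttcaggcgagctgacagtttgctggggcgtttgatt

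Among cyclins, cyclin-dependent kinases and E2F genes the median was 0.03, with 2 of 20 higher (10%, against 19.1% of all genes) and 1 lower (5%, against 13.8%) on both arrays. Under background at both times were 3 of the 20, among them E2f7, 1 of the 2 higher genes. Among 19 CDK inhibitor and p53 target genes 3 were higher (15.8%) and 1 lower (5.26%), also under the shares of all genes. Cdkn1a, the p21 inhibitor, had 2375 and 1833 at 36 h and 1443 and 1828 at 24 h, and 44.7 on average in unoperated livers (0.36 ± 0.34, 95% limits -0.40 to 1.11); it was chosen after its values were seen. The 36 h pools both lay above the 24 h pools, by little for replicate 2 of each time.

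Immediate-early genes, whose transcription factors are induced within minutes of a growth or stress signal, had a higher median at 36 h in Socs2-null livers. Of 14 measured, 6 were higher on both 36 h arrays (42.9%, against 19.1% of all genes) and none was lower, with a median of 0.34. Under background at both times were 2 of the 14, among them Egr2, 1 of the 6 higher genes. None of the 14 passed the adjusted test. Egr1, a zinc finger factor, had 2108 and 1428 at 36 h and 802 and 571 at 24 h (1.34 ± 0.72, adjusted p = 0.737, 95% limits -0.25 to 2.93). Ier2 had 804 and 494 against 360 and 459 (0.61 ± 0.28). Jund, a subunit of the AP-1 factor, had 1785 and 1544 against 1230 and 1397 (0.34 ± 0.12, adjusted p = 0.617). For these genes replicate 1 was the higher of the 36 h pools and no pool overlapped. In unoperated Socs2-null livers the mean log2 intensity of the 14 genes was 7.20 and 7.78, and Egr1 had 95.8 and 803. For this group the unoperated Socs2-null pools thus differed by more than the Socs2-null pools at 36 h or at 24 h.

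In wildtype livers the median of the same 14 genes was -0.19. On both wildtype 36 h arrays 1 was higher (against 23.3% of all genes) and 5 were lower (against 22.8%). The difference between genotypes had an unadjusted p under 0.05 for 3 of the 14, against 5.18% of all genes, and none passed. Ier2 had a log2 change of -0.88 in wildtype livers, and the difference had an unadjusted p of 0.003404. Atf3, a stress-induced factor, had 91.2 and 60.2 at 36 h and 35.9 and 68.6 at 24 h in Socs2-null livers, and had a log2 change of -0.75 in wildtype livers. Fos, the partner of Jun in AP-1, chosen after its values were seen, had 200 and 134 against 98.7 and 110 in Socs2-null livers, a log2 change of 0.58, and a log2 change of -1.37 in wildtype livers. The Socs2-null median of the group ran from 0.10 to 0.65 when 1 Socs2-null array was left out.

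Ribosome biogenesis factors had a median of 0.08 in Socs2-null livers, with 1 of 28 higher and 1 lower on both arrays. These shares of 3.57% each lay under the 19.1% and 13.8% of all genes. In wildtype livers the median was -0.35, and 19 of 28 were lower on both 36 h arrays, against 22.8% of all genes. Of their 28 differences between genotypes, 2 had an unadjusted p under 0.05, against 5.18% of all genes, and none passed. Their Socs2-null median went from -0.15 to 0.34 over the fits that left out 1 Socs2-null array.

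Genes of cholesterol synthesis were the group with the highest median in Socs2-null livers, 0.48. Of 18 measured, 11 were higher on both 36 h arrays (61.1%, against 19.1% of all genes) and none was lower, while none passed the adjusted test. Hsd17b7, a reductase of the late pathway, had 1170 and 1664 at 36 h and 765 and 995 at 24 h (0.67 ± 0.20, adjusted p = 0.593, 95% limits 0.23 to 1.10). Lss, lanosterol synthase, had 75.7 and 128 against 47.5 and 64.9 (0.68 ± 0.20, adjusted p = 0.593). Msmo1, a sterol demethylase, had 3302 and 4752 against 2682 and 2879 (0.51 ± 0.22). In each of these genes replicate 2 was the higher 36 h pool, and both 36 h pools lay above both 24 h pools.

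Sqle, squalene epoxidase, had 1636 and 2144 at 36 h and 1163 and 1532 at 24 h. Mvk, mevalonate kinase, had 268 and 388 against 223 and 212. Sc5d, sterol desaturase, had 1945 and 2793 against 1968 and 1486, and its pools overlapped. The group's median was between 0.20 and 0.73 when 1 Socs2-null array was left out, and it was 0.15 with the hybridization controls as a covariate. The wildtype median was 0.14, with 5 of 18 higher (against 23.3% of all genes) and 1 lower (against 22.8%) on both 36 h arrays. No difference between genotypes had an unadjusted p under 0.05 among these 18 genes.

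Promoters of the sterol genes are bound by SREBP2 together with NF-Y, which recognises CCAAT. The windows of Msmo1 and Hsd17b7 were chosen after their values were seen and are shown as examples with 3 CCAAT boxes each, in capitals, as CCAAT or on the other strand as ATTGG. This box was in 15 of 17 windows of the cholesterol genes (88.2%), against 37.4% of all windows. A sterol regulatory element searched as TCACNCCAC was in 1 of those 17 windows (5.88%) and in 1.24% of all. Msmo1 lies at chr8:64733529-64733828 and Hsd17b7 at chr1:169969156-169969455, both on the minus strand.
Msmo1: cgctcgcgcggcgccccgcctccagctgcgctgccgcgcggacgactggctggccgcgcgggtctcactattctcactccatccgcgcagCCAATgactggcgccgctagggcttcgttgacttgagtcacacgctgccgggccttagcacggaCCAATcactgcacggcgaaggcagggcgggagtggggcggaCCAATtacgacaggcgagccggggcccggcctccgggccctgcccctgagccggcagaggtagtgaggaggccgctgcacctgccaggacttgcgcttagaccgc
Hsd17b7: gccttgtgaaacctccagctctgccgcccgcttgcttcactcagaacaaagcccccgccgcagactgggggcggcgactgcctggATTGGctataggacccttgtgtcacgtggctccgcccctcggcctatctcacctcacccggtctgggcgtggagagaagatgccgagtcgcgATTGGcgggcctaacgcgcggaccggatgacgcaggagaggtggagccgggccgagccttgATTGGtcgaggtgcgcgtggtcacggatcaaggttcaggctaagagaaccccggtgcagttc

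For fatty acid and triglyceride synthesis the median was 0.12, and 3 of 17 genes were higher on both 36 h arrays (17.6%, against 19.1% of all genes) and 1 was lower (5.88%, against 13.8%). Fads2 and Fads1, desaturases of polyunsaturated fatty acids, had the smallest p of that group. Fads2 had 654 and 1202 at 36 h and 568 and 521 at 24 h (0.69 ± 0.23, adjusted p = 0.617), and Fads1 had 1254 and 1707 against 1066 and 920 (0.56 ± 0.19). Elovl6, which elongates saturated fatty acids, had 1212 and 796 against 912 and 557, an overlap, and rose by 1.56 in wildtype livers (adjusted p = 0.032). The difference for Elovl6 was -1.11, with an unadjusted p of 0.007565.

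Of 22 genes of fatty acid oxidation and PPARA targets, 5 were lower on both 36 h arrays (22.7%, against 13.8% of all genes). Another 2 were higher on both (9.09%, against 19.1% of all genes), and the median was -0.09. Beside Nudt7 and Ehhadh the lower genes were Cpt2, Cyp4a10 and Acot1. Cpt2, the inner carnitine palmitoyltransferase, had 1191 and 1386 at 36 h and 1600 and 1625 at 24 h (-0.32 ± 0.11). Cyp4a10, a fatty acid hydroxylase, had 3632 and 4489 against 5697 and 4806. Acot1, a cytosolic acyl-coenzyme A thioesterase, had 503 and 247 against 588 and 520. In wildtype livers the median was 0.10 and 12 of the 22 were higher on both 36 h arrays, against 23.3% of all genes. Of the 22 differences, 7 had an unadjusted p under 0.05, against 5.18% of all genes, and none passed.

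**Figure D4:**
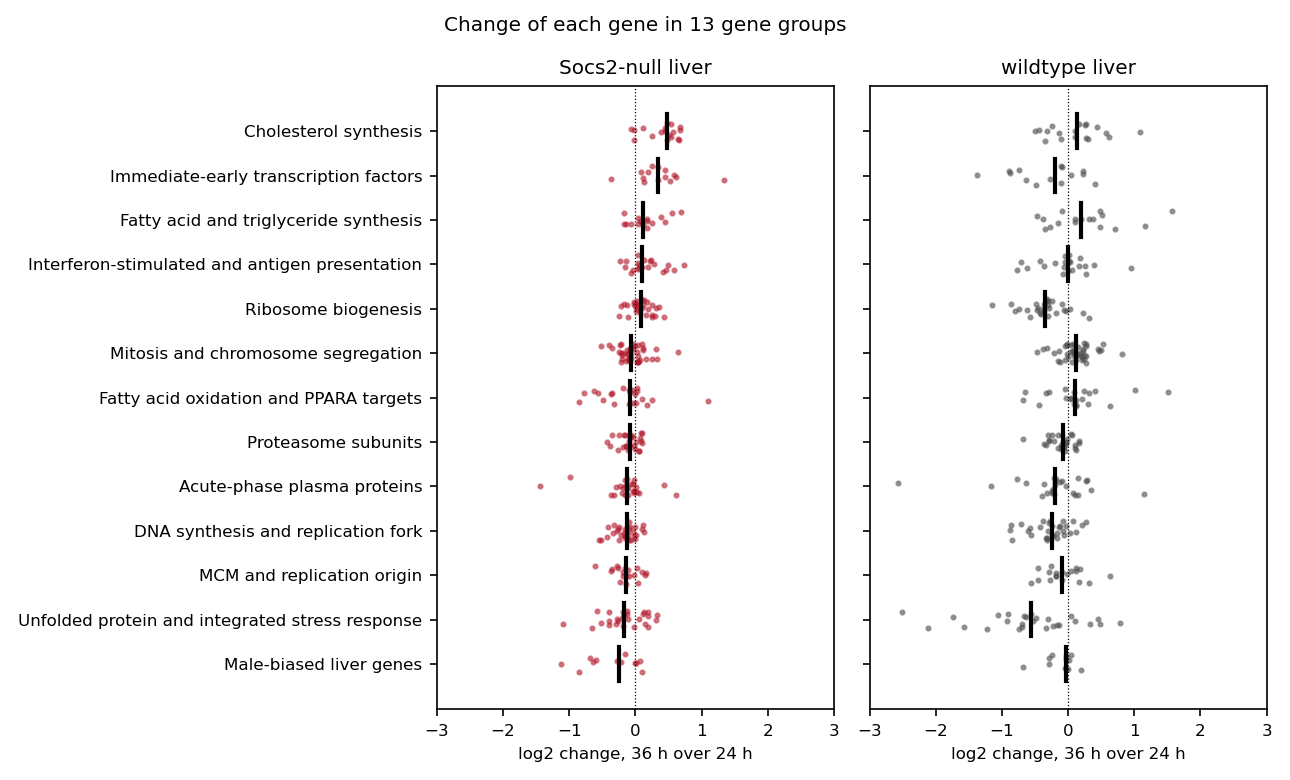
Each row is a gene group, each point 1 measured gene and each black bar the group's median. The horizontal axes give the log2 change of 36 h over 24 h in Socs2-null livers (left) and wildtype livers (right). In Socs2-null livers the highest median was that of cholesterol synthesis, 0.48, and the lowest that of male-biased genes, -0.25; in wildtype livers the lowest was that of the unfolded protein and stress response, -0.57.

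In the unfolded protein and integrated stress response, 7 of 27 genes were lower on both 36 h arrays (25.9%, against 13.8% of all genes) and none was higher, at a median of -0.18 (-0.33 to -0.04 without 1 Socs2-null array). Creld2, an endoplasmic reticulum protein induced by misfolding, had 1503 and 1869 at 36 h and 2138 and 6099 at 24 h (-1.10 ± 0.44, adjusted p = 0.656), and its change was -0.35 without replicate 2 at 24 h. Dnajb11, a chaperone of the reticulum, had 1050 and 1258 against 1479 and 2019 (-0.58 ± 0.19). Pdia6, a disulfide isomerase, had 2170 and 2947 against 3273 and 3434, and Hyou1, another chaperone, had 696 and 966 against 1064 and 1300. All of these were lower without overlap. In wildtype livers the median was -0.57, and Creld2 had a log2 change of -2.51. Of the 27 genes, 18 were lower on both wildtype 36 h arrays, against 22.8% of all genes. The differences between genotypes had an unadjusted p under 0.05 for 11 of 27, against 5.18% of all genes, and none passed.

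Of 29 proteasome genes, 5 were lower on both arrays (17.2%, against 13.8% of all genes) and none was higher, at a median of -0.09 that ran from -0.22 to 0.05 without 1 Socs2-null array. Psmc5, a base ATPase, had 954 and 1287 at 36 h and 1513 and 1492 at 24 h (-0.43 ± 0.14). Psma5, a core subunit, had 1139 and 1282 against 1474 and 1679 (-0.38 ± 0.13). Their wildtype changes were -0.36 and -0.68.

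Among 26 acute-phase plasma protein genes, 10 were lower on both 36 h arrays (38.5%, against 13.8% of all genes) and none was higher. The median was -0.13, and between -0.15 and -0.11 without 1 Socs2-null array. Saa3 had 603 and 674 at 36 h and 978 and 3189 at 24 h (-1.45 ± 0.56, adjusted p = 0.641), with the higher 24 h value in replicate 2 and a change of -0.60 without it. Saa4, a constitutive serum amyloid, had 1269 and 2929 against 4692 and 3136 (-0.99 ± 0.35), and its change was -0.39 without replicate 1 at 36 h and -1.58 without replicate 2. Hp, haptoglobin, had 12643 and 13014 against 14935 and 13662 (-0.16 ± 0.07). In wildtype livers the log2 changes of Saa3 and Saa4 were 1.15 and 0.28, and the differences of -2.60 and -1.27 did not pass. The whole group had a wildtype median of -0.19. Of its 26 genes, 12 were lower on both wildtype 36 h arrays (against 22.8% of all genes) and 4 higher (against 23.3%). S100a8 and S100a9 were highest in the 24 h pool that had the high Saa3. When that pool was left out, S100a9 had a log2 change of 0.50 and S100a8 one of 0.57, against -0.88 and -0.72 with all pools.

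Coagulation and complement genes were lower on both arrays for 6 of 26 (23.1%, against 13.8% of all genes) and higher for none, at a median of -0.03 that ran from -0.18 to 0.08 without 1 Socs2-null array. C6, a component of the membrane attack complex, had 735 and 613 at 36 h and 1203 and 920 at 24 h (-0.64 ± 0.15, adjusted p = 0.593). C8b and C9, of the same complex, had 1280 and 924 against 1457 and 1848, and 4454 and 4435 against 6165 and 4680. Pros1, protein S, had 303 and 316 against 396 and 411. Wildtype changes were -0.03 for C6, -0.67 for C8b, 0.16 for C9 and 0.10 for Pros1.

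Among 21 interferon-stimulated and antigen presentation genes, 7 were higher on both 36 h arrays (33.3%, against 19.1% of all genes). There 1 was lower on both (4.76%, against 13.8% of all genes), and the median was 0.10. Rsad2, the antiviral viperin, had 210 and 180 at 36 h and 140 and 86.3 at 24 h (0.74 ± 0.18, adjusted p = 0.593). Ifit3 had 134 and 158 against 107 and 78.3 (0.59 ± 0.16), and Ifit2 had 53.7 and 60.5 against 43.3 and 31.8; both bind viral RNA or its complexes. Stat2, the signal transducer of type I interferon, had 123 and 129 against 97.1 and 106. The median kept its sign in all 22 alternatives, between 0.06 and 0.19.

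Male-biased liver genes, many of which depend on growth hormone pulses, had the lowest median, -0.25. Of 12 measured, 4 were lower on both arrays (33.3%, against 13.8% of all genes) and 1 was higher (8.33%, against 19.1%). The 4 were Nudt7, C6, Moxd1 and Cyp7b1. Moxd1, a monooxygenase-like protein, had 23.6 and 23.1 at 36 h and 86.5 and 55.5 at 24 h, and 27.8 and 20.3 in unoperated Socs2-null livers. It was under background at 36 h, so that only a bound of at least 1.72-fold lower can be given (adjusted p = 0.617). Wildtype livers had 222 and 104 for Moxd1 at 36 h and 144 and 151 at 24 h, above every Socs2-null pool. Cyp7b1, an oxysterol hydroxylase, had 2154 and 3548 against 4858 and 3578 in Socs2-null livers (-0.59 ± 0.21). The group's mean log2 level was 9.82 and 9.88 at 36 h and 10.47 and 9.95 at 24 h, so replicate 1 at 24 h stood above the other 3 pools. Without 1 Socs2-null array the median ran from -0.61 to 0.06.

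Of 14 female-biased genes 2 were higher on both arrays (14.3%, against 19.1% of all genes) and 1 lower (7.14%, against 13.8%), and 5 were under background at both times. Hao2, a hydroxyacid oxidase, had 74.3 and 59.0 at 36 h and 43.8 and 45.7 at 24 h (0.44 ± 0.13, adjusted p = 0.593). Cyp3a41a, a female-predominant cytochrome P450, had 130 and 139 against 85.7 and 88.7 (0.54 ± 0.19); probe sets of this family can share sequence between its close copies. Among 19 genes of the growth hormone, STAT5 and IGF axis none was higher on both arrays, against 19.1% of all genes. There 1 was lower (5.26%, against 13.8%), at a median of -0.07.

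Of 21 bile acid genes, 5 were higher on both arrays (23.8%, against 19.1% of all genes) and 3 lower (14.3%, against 13.8%), shares close to those of all genes. Akr1d1, the steroid reductase of bile acid synthesis, had 419 and 327 at 36 h and 295 and 166 at 24 h (0.70 ± 0.24, adjusted p = 0.617). Baat, which conjugates bile acids to amino acids, had 977 and 813 against 1009 and 1777 (-0.58 ± 0.21), and its change was -0.18 without replicate 2 at 24 h. Cth, the last enzyme of transsulfuration, had 3796 and 2056 against 2077 and 1559, an overlap by a small margin. It belongs to the amino acid group, with 3 of 16 higher (18.8%, against 19.1% of all genes). Rora, a nuclear receptor of the clock loop, had 731 and 1189 against 687 and 641 (0.48 ± 0.18). Its group of 20 clock genes had 5 higher (25%, against 19.1% of all genes) and 1 lower (5%, against 13.8%). In wildtype livers Rora rose by 1.21 (adjusted p = 0.029). Hnf4a, a hepatocyte identity factor, had 4180 and 4242 against 3482 and 3441 (0.28 ± 0.12). Il6, the cytokine that primes regeneration, had 37.8 and 26.7 against 12.5 and 25.9, with both 24 h values and the second 36 h value under background, so no fold is given.

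Markers of cell types were summed on each array. The 10 hepatocyte markers summed to between 112125 and 116621 at 36 h and between 114198 and 116506 at 24 h, and none of them was under background. The 14 Kupffer cell markers had 3 higher (21.4%, against 19.1% of all genes) and none lower on both arrays, with overlapping sums of 8502 to 11127 and of 7610 to 10357. Of these, Cd68 had 305 and 381 against 276 and 273. Sinusoidal endothelial markers had 4 of 14 lower (28.6%, against 13.8% of all genes) and 1 higher (7.14%, against 19.1%). Their sums of 4014 to 4340 at 36 h were below those of 4626 to 4656 at 24 h. Clec4g, a lectin of sinusoidal cells, had 487 and 872 against 1134 and 1003 (-0.70 ± 0.22, adjusted p = 0.617). Of 11 lymphocyte markers 4 were lower on both arrays (36.4%, against 13.8% of all genes) and 3 higher (27.3%, against 19.1%). Their median was -0.08, and 5 were under background at both times. Their smallest p belonged to Cd3e, a T cell receptor subunit, which had 160 and 146 against 113 and 101. Of 9 pancreas, muscle and fat markers 3 were higher on both arrays (33.3%, against 19.1% of all genes) and 1 lower (11.1%, against 13.8%), at a median of 0.12. The lower one was Fabp4, a fatty acid binding protein of adipocytes and of capillary endothelium, with 1483 and 1001 against 1788 and 1866. No marker used here was listed at 0, and the part of these shifts in other results was not tested.

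The genes with the most extreme tests of the difference from wildtype did not pass, with adjusted p of 0.482 to 0.795. Cpt1a, the gatekeeper of mitochondrial fatty acid import, had 1366 and 1529 at 36 h and 1383 and 1525 at 24 h in Socs2-null livers (-0.01, 95% limits -0.28 to 0.27). In wildtype livers it had 2913 and 3218 at 36 h and 1660 and 1366 at 24 h (1.02, adjusted p = 0.0236), a difference of -1.02. Selenbp2, a selenium-binding protein, had 2388 and 2478 against 2206 and 2338 in Socs2-null livers, and 2637 and 2414 against 4115 and 4030 in wildtype livers, a difference of 0.79. Rian, an imprinted noncoding RNA, had 75.2 and 114 against 53.2 and 61.1 in Socs2-null livers, and 44.0 and 40.3 against 89.6 and 71.1 in wildtype livers, a difference of 1.30. Mrap2, a melanocortin receptor accessory protein, had a log2 change of 0.44 in Socs2-null livers and of -0.31 in wildtype livers. Its mean brightness lay below the median of the genes tested. In the Socs2-null livers the Cpt1a pools overlapped between times, while the wildtype pools did not.

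**Figure D5:**
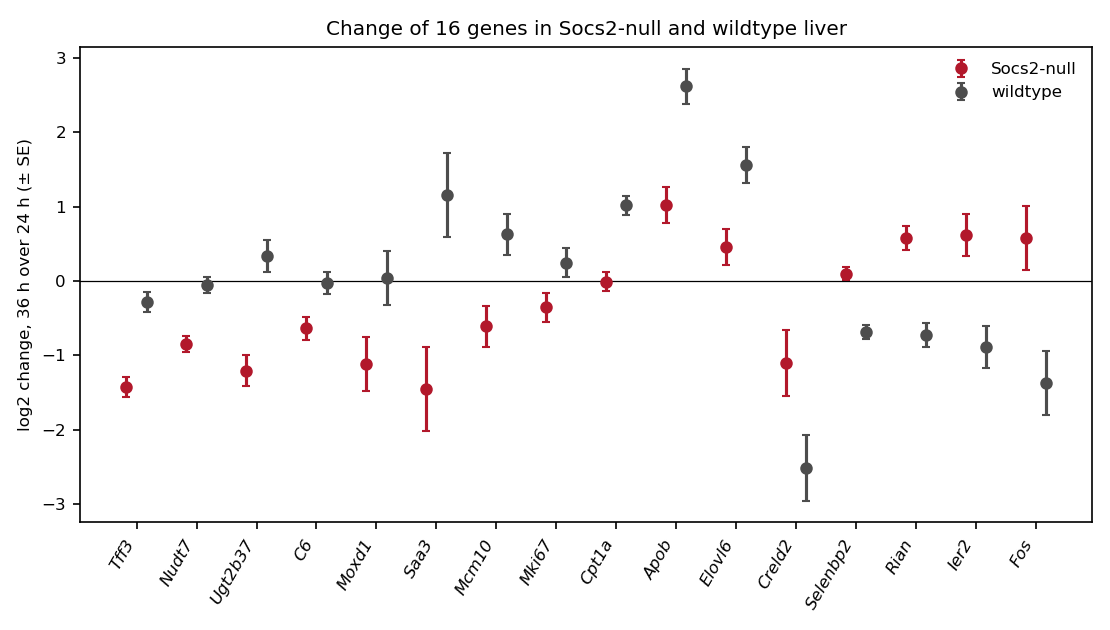
Points are the log2 changes of 36 h over 24 h of 16 genes in Socs2-null livers (red) and wildtype livers (grey), with bars of 1 standard error from the model. Tff3, Nudt7, Ugt2b37 and C6 were lower in Socs2-null livers with wildtype values of -0.28, -0.05, 0.34 and -0.03, and no difference between genotypes passed the adjusted threshold.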

How the data were processed

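Liver RNA was measured on 12 one-colour Affymetrix-type arrays. The deposited values are the authors' processed probe set intensities on a linear scale. How the authors corrected, summarized and normalized them is not stated in the labels or file headers. Of 45141 probe sets, 104 controls were left out, 28898 named 1 gene in the platform annotation, 551 named several and 15588 named none. A gene was represented by the brightest of its probe sets, and no filter on low values was applied. A value was called under background when it lay below the brightest of 17 negative tag controls on the array. Log2(intensity + 16) was fitted with limma 3.58.1 in R 4.3.3 with 6 group means over 12 arrays (6 residual degrees of freedom), a mean-variance trend and robust moderation. P-values are two-sided and adjusted by Benjamini-Hochberg over 17097 genes, with a threshold of 0.05. Named genes were Socs2, the highest and lowest moderated t, the members of 38 gene lists with the smallest p, the extreme tests of the difference from wildtype, and the genes said to be chosen after their values were seen. The members and lists were chosen with earlier results of these data known. The main fit did not pair pools by replicate number. The deviations of replicate 1 correlated at -0.50 between Socs2-null 36 h and 24 h and at 0.35 between Socs2-null 36 h and wildtype 24 h. Whether pools were handled in pairs or batches cannot be told from the labels. Array number limits the precision. Scripts were tested on simulated data, and figures were drawn with matplotlib.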

Additional observations from a re-analysis of the deposited data

How the results depend on the processing

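Across 22 alternatives, 88 of 102 results on single genes kept their direction and their side of the threshold, and 9 of 38 list medians kept their sign. The count of Socs2-null genes, 1, became 3 with quantile normalization, 2 with the genes below the median brightness left out, 2 with the replicate block, 1 with the crossed replicate block (added after seeing the data), and 0 with the compared arrays alone (718 at unadjusted p under 0.05), the 24 h and 36 h arrays alone (936) or the hybridization-control covariate (2715, added after seeing the data); leaving out single replicates gave 1 to 9. Tff3 was called in each setting except those with 0, and Nudt7 reached an adjusted p of 0.0414 with the block. Without replicate 1 of the 24 h group 9 genes were called, without replicate 1 of the 36 h group 3 and without replicate 2 of the 36 h group 3. The wildtype count of 41 became 26 after centring, 13 with the compared arrays alone, 24 with the replicate block, 0 with the 24 h and 36 h arrays alone (1920 at unadjusted p under 0.05) or the hybridization covariate (1923), and 5 to 181 without single replicates. The count of differences was 0 in each, with 505 to 2326 at unadjusted p under 0.05. A lone array in a group was assumed to vary like the other groups. Directions turned for Socs2 (0.12 with the mean of probe sets, -0.17 to 0.022 without single replicates, 0.68 with the covariate), Carmil2 (-0.022 without ambiguous probe sets), Sc5d (-0.034, covariate), Hmmr (-0.039, mean of probe sets), S100a9 (-2.27 to 0.50 without single replicates, 0.87 with the covariate), S100a8 (-2.01 to 0.57, and 0.88), Cpt1a (-0.088 to 0.074, and 0.11 with the covariate), and, without single replicates, Ivl (-0.26 to 4.79), Pdk4 (-0.89 to 3.08) and Slc25a30 (-0.066 to 2.92). The cause was not tested.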
